A study of Mus musculus with 4 samples.

Results

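A set of 10 transcription factor genes that set or maintain mammary epithelial identity were examined for accessible chromatin: Gata3, Elf5, Foxa1, Esr1, Pgr, Grhl2, Ovol1, Trp63, Tfap2c and Runx1. They are 10 of the 22350 protein-coding genes annotated on chromosomes 1 to 19 and X. They were named by function, but with earlier results of these data known. For each gene, regions were collected within 1000 bp of any annotated transcription start site (TSS) and over the gene body with 20 kb on either side, called its window. The 10 windows spanned 1.52 Mb, and they held 9 of the 19648 vehicle regions, 30 of the 38532 TGFβ regions and 16 of the 26732 regions of the 10 min experiment.

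The regions come from ATAC-seq, which reads open chromatin through insertions of the Tn5 transposase, in NMuMG, a cell line derived from the epithelium of the normal murine mammary gland. A pair of samples was treated in complete medium (serum and insulin present) for 2 h with TGFβ1 at 5 ng per ml or with its vehicle (HCl with bovine serum albumin, per the protocol). A second pair was first kept for 6 h without serum and insulin and then received the same TGFβ1 dose or vehicle for 10 min; for its TGFβ sample a label gives 2 h, whereas the title and protocol give 10 min. Each complete-medium sample had its own list of called peaks, and both 10 min samples were assigned the same single list. This list is named for the TGFβ treatment, so whether it stands for TGFβ alone or for both samples is unknown, and no 10 min value below is assigned to either condition. No condition had a second list and the lists hold no reads, so depth is unknown from them, no test between conditions was possible, and intervals below cover the counting of regions only. As a line, NMuMG represents luminal and basal cells of the gland only in part. Of 8 epithelial markers, 3 had a region at their TSS for vehicle, 4 for TGFβ and 4 at 10 min. Krt8, Krt18 and Krt19, keratins of simple epithelium, were called in every list, but Cdh1 (E-cadherin) was called in the 10 min list alone, Cldn4 in the TGFβ list alone, and Epcam, Cldn3 and Cldn7 in none. Hence an uncalled start was not shown to be closed. Of 5 basal or myoepithelial markers and 4 immune markers none had a region at its TSS in any list, of 5 fibroblast markers only Col1a1 did, in all 3 lists, and of 3 endothelial markers only Kdr did, in the TGFβ list.

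In the mammary gland, luminal cells face the lumen and basal cells contract around them. Gata3, Foxa1 and the oestrogen receptor encoded by Esr1 act together in hormone-sensing luminal cells, with Pgr, the progesterone receptor gene, as a target. Elf5 drives the alveolar cells that make milk, Tfap2c encodes AP-2γ of the luminal lineage, and Trp63 encodes p63 of basal cells. Grhl2 and Ovol1 encode factors that keep epithelial genes on and oppose epithelial-mesenchymal transition (EMT), the program that TGFβ induces in NMuMG cells, and Runx1 encodes a RUNX factor active in both lineages.

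Except at Foxa1, the regions at these genes lay away from the first coding start. The stretches below are the parts of a region common to every list that called it, at most 300 bases around the middle, read from mm9 on the strand of the gene. They are shown because the results turn on them: Gata3 (chr2:9801182-9801481, minus strand), Grhl2 (chr15:37247892-37248188, plus strand), Runx1 (chr16:92697574-92697788, minus strand, the bases upstream of its proximal coding start), Esr1 (chr10:5725249-5725548, minus strand), Foxa1 (chr12:58646091-58646390, minus strand) and Trp63 (chr16:25861060-25861359, plus strand). Capitals mark matches, on either strand, to the consensus letters named further on.
Gata3: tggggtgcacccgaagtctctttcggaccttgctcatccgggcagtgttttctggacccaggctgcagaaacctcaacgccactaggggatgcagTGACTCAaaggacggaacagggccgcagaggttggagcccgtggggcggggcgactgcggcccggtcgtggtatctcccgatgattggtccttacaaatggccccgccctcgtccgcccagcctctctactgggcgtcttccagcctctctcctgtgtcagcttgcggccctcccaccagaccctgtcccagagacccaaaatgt
Grhl2: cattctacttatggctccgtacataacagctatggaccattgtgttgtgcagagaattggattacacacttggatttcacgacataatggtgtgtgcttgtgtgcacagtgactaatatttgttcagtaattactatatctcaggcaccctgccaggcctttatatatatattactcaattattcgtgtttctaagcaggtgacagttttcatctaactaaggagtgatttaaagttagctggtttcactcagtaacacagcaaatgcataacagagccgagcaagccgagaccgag
Runx1: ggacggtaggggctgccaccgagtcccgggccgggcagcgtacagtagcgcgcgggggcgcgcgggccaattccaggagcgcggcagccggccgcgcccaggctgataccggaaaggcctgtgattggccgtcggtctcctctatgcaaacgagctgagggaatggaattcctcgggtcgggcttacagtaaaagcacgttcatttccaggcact
Esr1: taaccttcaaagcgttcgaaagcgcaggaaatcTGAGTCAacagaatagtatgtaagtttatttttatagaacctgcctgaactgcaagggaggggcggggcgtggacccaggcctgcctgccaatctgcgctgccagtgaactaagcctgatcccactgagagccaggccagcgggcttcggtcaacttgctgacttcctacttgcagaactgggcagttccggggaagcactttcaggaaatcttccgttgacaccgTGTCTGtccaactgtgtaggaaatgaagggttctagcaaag
Foxa1: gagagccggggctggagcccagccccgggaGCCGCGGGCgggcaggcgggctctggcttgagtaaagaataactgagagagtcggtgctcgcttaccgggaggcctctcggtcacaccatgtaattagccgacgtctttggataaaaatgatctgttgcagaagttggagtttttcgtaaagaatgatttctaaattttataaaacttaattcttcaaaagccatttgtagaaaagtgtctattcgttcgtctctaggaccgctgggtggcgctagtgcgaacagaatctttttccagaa
Trp63: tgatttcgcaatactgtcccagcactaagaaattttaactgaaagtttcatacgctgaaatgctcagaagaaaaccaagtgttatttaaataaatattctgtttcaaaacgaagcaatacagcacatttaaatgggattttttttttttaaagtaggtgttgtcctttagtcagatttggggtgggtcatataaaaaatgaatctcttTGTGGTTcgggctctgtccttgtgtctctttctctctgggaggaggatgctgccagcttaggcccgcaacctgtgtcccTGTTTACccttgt
The Gata3 stretch carries an AP-1 match starting at base 96. The Esr1 stretch carries an AP-1 match at base 34 and a SMAD match at base 260, the Foxa1 stretch a TFAP2 match at base 31, and the Trp63 stretch a RUNX match at base 209 and a FOX match at base 288. The Grhl2 and Runx1 stretches held none of the letters searched. The GC content ran from 39.0% at Trp63 and 40.4% at Grhl2 to 62.7% at Gata3 and 65.6% at Runx1.

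The start sites were examined first. Gata3, Grhl2 and Runx1 had a region within 1000 bp of some annotated TSS in the vehicle list, which is 3 of 10 members, where 41.0% of all protein-coding genes had one. In the TGFβ list Foxa1 joined them, giving 4 of 10 against 47.6%, and in the 10 min list Foxa1 and Elf5 did, giving 5 of 10 against 46.3%. Esr1, Pgr, Ovol1, Trp63 and Tfap2c had no region at a start in any list, a pattern they shared with 11266 protein-coding genes (50.4%). The pattern of Gata3, Grhl2 and Runx1, called in all 3 lists, was that of 8916 genes (39.9%), that of Foxa1 (TGFβ and 10 min) of 1040 (4.65%), and that of Elf5 (10 min alone) of 302 (1.35%).

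Counted at the first coding start, that is the 5′-most TSS of a protein-coding transcript, the members were seldom called. None of the 10 had a region there in the vehicle list, and only Foxa1 had one at TGFβ or at 10 min. Of all protein-coding genes, 38.6%, 44.6% and 43.5% had such a region in the vehicle, TGFβ and 10 min lists. This count was made after the values were seen, and it depends on the start chosen. At any protein-coding TSS, 2 (vehicle), 3 (TGFβ) and 3 (10 min) of the members had a region. Gata3 and Runx1 were among them in every list, at coding starts inside the gene. The share of all protein-coding genes at any coding TSS is not given. A start that is rich in CpG dinucleotides was called far more often over the genome, so the members were also split by this property. The ratio of observed to expected CpG within 500 bp of the first coding start was at least 0.6 for Foxa1 (0.880), Grhl2 (0.757), Ovol1 (1.04) and Tfap2c (0.689), and ran from 0.193 for Elf5 to 0.555 for Pgr among the other 6. Among CpG-rich genes 69.4% (vehicle), 76.9% (TGFβ) and 76.2% (10 min) had a region there. Of the 4 CpG-rich members the counts were 0, 1 and 1. Of CpG-poor genes 12.3%, 17.2% and 15.7% had one, and of the 6 CpG-poor members none did. The split describes the first coding start only. Gata3 (0.481) and Runx1 (0.342) count as CpG-poor by that start, and the CpG ratio at their called internal coding starts was not computed.

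**Figure D1:**
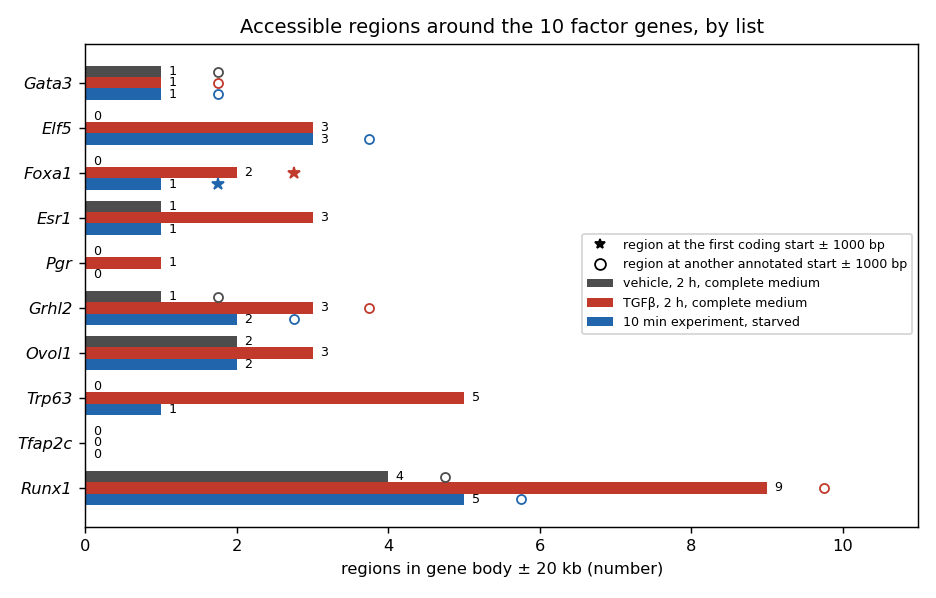
Number of regions in each gene body ± 20 kb (horizontal axis) for the 10 members, with 1 bar per list; stars mark a region at the first coding start and open circles a region at another annotated start. Runx1 had the most regions in every list (4, 9 and 5), Tfap2c had none, and stars appear only at Foxa1.

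Gata3 (ENSMUSG00000015619.9, chr2:9778705-9811661, minus strand) had a single region in its window in each list. It lay in an intron, centred 10328 to 10519 bp into the gene, 544 to 944 bp upstream of an internal coding start at 9800227. For vehicle it spanned 324 bp (chr2:9801171-9801494), for TGFβ 526 bp (chr2:9800966-9801491) and at 10 min 742 bp (chr2:9800771-9801512), and its score was at the cap of 1000 in each. The score is the authors' scaled measure of the agreement between replicates (irreproducible discovery rate), and it was used only within a list. The labels give 1 sample per condition, so what served as replicates is not known here. The first coding start of Gata3 was 10149 to 10170 bp from the nearest region of each list. Gata3 was the only member with regions whose number was the same in all 3 lists.

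Grhl2 (ENSMUSG00000022286.9, chr15:37162791-37293324, plus strand), which encodes a grainyhead-like factor of epithelial cells, was called in the vehicle list at 1 place, chr15:37247878-37248333. This region covered a noncoding exon at the TSS of a processed transcript, 85087 bp from the first coding start. In its own list it scored 715, a value reached by 72.1% of vehicle regions. The overlapping TGFβ region (297 bp) and 10 min region (807 bp) were at the cap. The TGFβ list had another 2 regions in introns, of 150 bp and 204 bp, which overlapped neither of the other lists, and the 10 min list had an intronic region of 183 bp of its own. The first coding start of Grhl2 was 11428 bp from the nearest TGFβ region and 39734 bp from the nearest 10 min region.

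Runx1 (ENSMUSG00000022952.9, chr16:92601712-92826311, minus strand) has a distal and a proximal promoter, and regions were called at the proximal one. There the region spanned 1022 bp in the vehicle, 1058 bp in the TGFβ and 1151 bp in the 10 min list. It covered the coding start at 92697573 and 5′ untranslated sequence, with the score cap in each list. The distal first coding start had no region within 1000 bp. The TGFβ list alone had an intronic region of 246 bp at chr16:92823902-92824147, 2164 bp from that start. The nearest regions of the 10 min and vehicle lists were 77745 bp and 128350 bp away.

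A further 3 intronic elements of Runx1 were shared by all lists. The most distal of them spanned 480 bp in the vehicle list, 709 bp in the 10 min list and 2920 bp in the TGFβ list (chr16:92608352-92611271), where only 0.0182% of regions were at least as wide. The TGFβ region joined 3 intervals, the widest 453 bp, so its width comes from merging neighbours and not from a single broad peak. The second element spanned 298 bp, 850 bp and 833 bp in the vehicle, TGFβ and 10 min lists, and the TGFβ region here joined 2 intervals. The third spanned 391 bp, 395 bp and 391 bp and was alike in the 3 lists. An intronic region at chr16:92687305-92687521 was found in the TGFβ and 10 min lists and not in the vehicle list, and 4 intronic regions of 246 to 735 bp, the one near the distal start included, were in the TGFβ list alone.

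Foxa1 (ENSMUSG00000035451.6, chr12:58641618-58647108, minus strand), a pioneer factor that opens chromatin for the oestrogen receptor, had no vehicle region within 61929 bp of the gene. In the TGFβ list a region of 434 bp (chr12:58646024-58646457) lay in the intron, 651 bp from the start. In the 10 min list a region of 1224 bp reached across the start and overlapped coding sequence. It was joined from 2 intervals, of 750 bp and 171 bp, with a gap between them. The scores were low within their lists, 681 in the TGFβ list, a value reached by 78.9% of its regions, and 664 in the 10 min list, reached by 74.0%. Both lay below the median score of the list, so the median-score cut used further on drops them. Beyond the 3′ end of the gene the TGFβ list had a further region of 191 bp that neither other list had. Foxa1 was the only member with a region within 1000 bp of its first coding start in the TGFβ list and not in the vehicle list, and that TGFβ region did not cover the start.

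The hormone receptor genes had few regions for their length. Esr1 (ENSMUSG00000019768.9, chr10:5340927-5734948, minus strand of mm9), the oestrogen receptor gene, had 1 vehicle region in a window of 434 kb. This region (chr10:5725108-5725668, 561 bp) lay in an intron 8884 bp from the first coding start, and it overlapped regions of 557 bp in the TGFβ list and 597 bp in the 10 min list. It scored 546 for vehicle, near the lowest value of 540, 993 for TGFβ and 752 at 10 min, values reached by 98.9%, 42.0% and 59.4% of the regions of each list. The TGFβ list had another 2 intronic regions, of 310 bp and 350 bp. Pgr (ENSMUSG00000031870.9, chr9:8900419-8965425, plus strand) had no vehicle and no 10 min region within 83114 bp of the gene, and its single TGFβ region of 321 bp, scoring 586, lay 4875 bp beyond the 3′ end. None of the 3 lists had a region within 1000 bp of any start of either gene.

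Trp63 (ENSMUSG00000022510.8, chr16:25683849-25892188, plus strand), the gene of the basal factor p63, had no vehicle region and 5 TGFβ regions, the largest difference in number among members without a vehicle region. Its window was long, at 248 kb. Per 100 kb it held 2.01 TGFβ regions, below the median of 2.36 over protein-coding windows and below Foxa1 (4.40) and Elf5 (3.78). Of the 5 TGFβ regions, 3 lay in introns, 1 upstream and 1 beyond the 3′ end. Their widths were 182 to 742 bp and their scores 592 to 898. One of them, an intronic region of 742 bp (chr16:25860839-25861580), overlapped a 10 min region of 773 bp. The region nearest to its first coding start, in any list, was 9652 bp away.

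Elf5 (ENSMUSG00000027186.8, chr2:103251845-103291146, plus strand), an ETS factor of alveolar cells, had no vehicle region within 33586 bp of the gene and 3 regions in each of the other lists. The TGFβ and 10 min lists shared a single intronic region, of 206 bp and 173 bp. The 10 min list placed its other 2 regions in introns, the one counted at a TSS lying 834 bp from the start of a processed transcript, with scores of 541 and 589. Of the TGFβ regions, 1 lay upstream, and the one beyond the 3′ end (chr2:103304680-103305006, 327 bp), which falls inside the neighbouring gene Cat, was at the cap. It was the only region among all members that was at the cap and absent from the vehicle list.

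Ovol1 and Tfap2c had no region over the gene itself. The window of Ovol1 (ENSMUSG00000024922.1, chr19:5549137-5560575, minus strand), a zinc-finger repressor gene, held 2 regions at the cap in every list. The wider one, of 1542, 2053 and 1927 bp in the vehicle, TGFβ and 10 min lists, overlapped the gene Gm962 and its TSS, and its nearest edge was 6569 to 6954 bp from the Ovol1 start. The other, of 580, 664 and 894 bp, lay past the 3′ end, 30484 to 30640 bp from the start. A TGFβ region of 190 bp and a score of 548 stood upstream. The window of Tfap2c, annotated as Tcfap2c (ENSMUSG00000028640.5, chr2:172375093-172384122, plus strand), was empty in the 3 lists, and the nearest region of each was 85183 to 85205 bp from the gene.

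**Figure D2:**
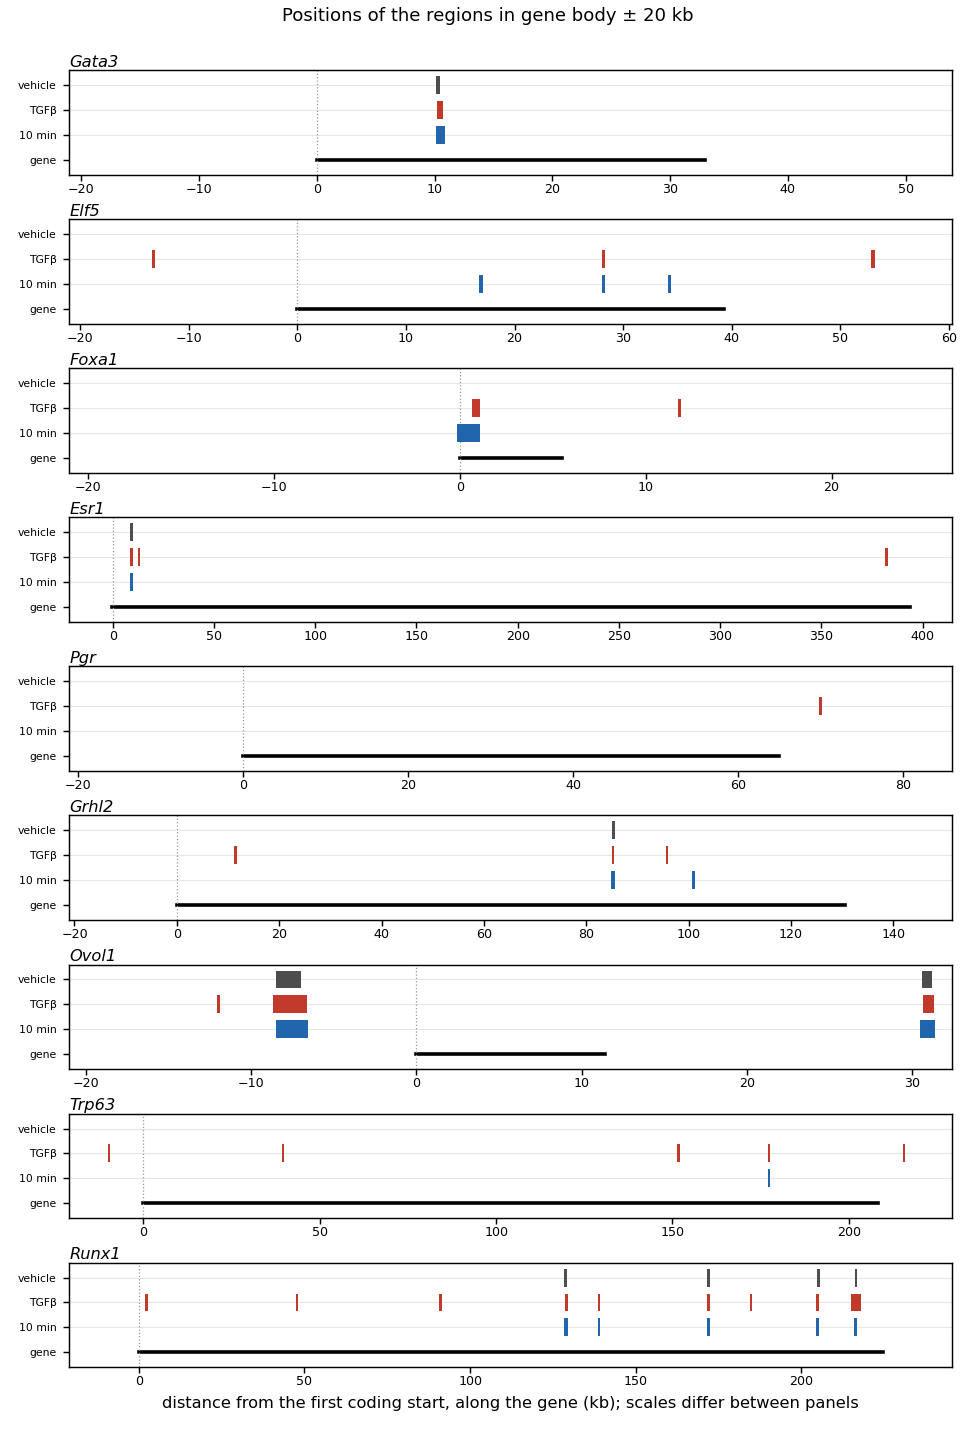
Regions of each list drawn against the distance from the first coding start in kb, along the direction of the gene, for the 9 members with a region; the black line is the gene body, and very narrow regions are widened so that they remain visible. Every vehicle region has a TGFβ and a 10 min region at the same place, and the 17 places of the TGFβ list alone lie at 8 members, 4 each at Trp63 and Runx1.

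To see how TGFβ in complete medium compared with vehicle at these genes, the regions were counted and matched. The windows held 9 vehicle and 30 TGFβ regions, a ratio of 3.33 (exact 95% interval 1.54 to 7.98), and the whole lists had a ratio of 1.96 (1.93 to 2.00), which lies inside that interval. The TGFβ list had more regions than the vehicle list at 8 of 10 members, where 48.2% of all protein-coding genes had more. The exceptions were Gata3, with 1 region in each, and Tfap2c, with none. A vehicle region was present in the windows of 5 of the members (63.1% of protein-coding genes had one), a TGFβ region in those of 9 (73.6%), and a 10 min region in those of 8 (68.8%). Each of the 9 vehicle regions had an overlapping TGFβ region (100%, with a 95% Wilson interval from 70.1%) and an overlapping 10 min region, and over the whole vehicle list 93.6% and 87.6% did. No member had a vehicle region without a TGFβ counterpart, which 6.93% of protein-coding genes had. The shares of protein-coding genes were not matched for window length. Member windows ran from 45.5 kb (Foxa1) to 434 kb (Esr1), and a longer window has more room for a region.

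Of the 30 TGFβ regions, 21 overlapped no vehicle region (70.0%, Wilson interval 52.1 to 83.3%), compared with 52.4% in the whole list. The interval includes the value of the list. They lay at 8 of the 10 members, and 50.2% of protein-coding genes had at least 1 such region in their window, again without a match for window length. Of these 21, 4 overlapped a 10 min region, at Elf5, Foxa1, Trp63 and Runx1, and 17 were in the TGFβ list alone. The TGFβ list is the longer one, and the ratio moved when the lists were cut to the same length. A cut at the median score of each list does not equalise their lengths. It left 10 TGFβ and 5 vehicle regions, a ratio of 2.00 (0.623 to 7.46). Both other lists were then shortened by score to 19648 regions, the length of the vehicle list, which makes the ratio of the whole lists 1 by construction. The windows now held 9 vehicle, 10 TGFβ and 10 of the 10 min regions, and the ratio was 1.11 (0.406 to 3.09). Of the 10 TGFβ regions, 1 had no vehicle counterpart. The share of all TGFβ regions without a counterpart under this cut is not given. The lists do not give the depth of the libraries. For complete medium the study reports fewer mapped and filtered reads for the TGFβ sample than for vehicle. The part of depth in these counts was not tested. Intervals under 150 bp, which the rule drops, numbered 1 in the vehicle windows (Gata3), 4 in the TGFβ windows (Elf5, Trp63 and Runx1) and 0 at 10 min.

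Among the member regions of the TGFβ and 10 min lists, those found in all lists had the larger median width and score. Widths and scores of the whole lists split in this way are not given. The difference therefore cannot be read as particular to the members. In the TGFβ list the 9 shared regions were 297 to 2920 bp wide (median 664 bp), and 8 of them were at the cap. The 17 regions of the TGFβ list alone were 150 to 735 bp wide (median 274 bp) and scored 548 to 1000 (median 681), with 1 at the cap. The 4 regions shared with the 10 min list only were 206 to 742 bp wide and scored 552 to 741. In the 10 min list, 8 of the 9 regions shared by all were at the cap, whereas the 3 regions of that list alone, at Elf5 and Grhl2, were 173 to 337 bp wide and scored 541 to 600. Over the whole lists the median widths were 428 bp for vehicle, 379 bp for TGFβ and 544 bp for the 10 min list. The member regions had medians of 480, 324 and 725.5 bp. At the cap were 5 of 9 vehicle member regions (38.2% of the whole list), 9 of 30 TGFβ (41.4%) and 8 of 16 at 10 min (29.9%). The Wilson intervals of these member shares, 26.7 to 81.1%, 16.7 to 47.9% and 28.0 to 72.0%, included the share of the list.

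**Figure D3:**
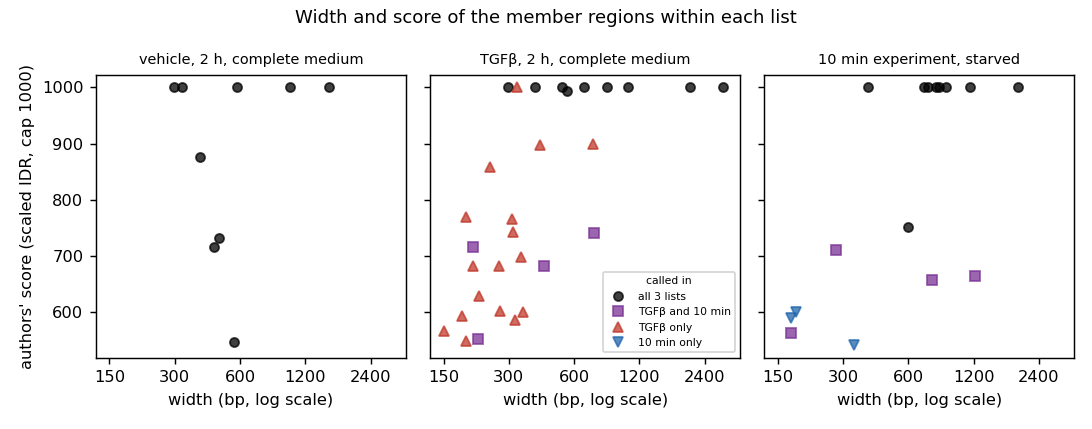
Width in bp (log scale) and the authors' score of each member region, with 1 panel per list and symbols for the lists that called it. Of the 9 regions called in all lists, 8 sit at the cap of 1000 in the TGFβ and 10 min panels, and the 17 of the TGFβ list alone have a median of 681.

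Over the 3 lists the member windows held 33 separate places. Of these, 9 were in all lists (27.3%; 38.9% of the 42895 places of the whole series), 17 in the TGFβ list alone (51.5%; 32.2%), 4 in the TGFβ and 10 min lists (12.1%; 14.6%) and 3 in the 10 min list alone (9.09%; 7.60%). No place was in the vehicle list alone (1.64% of the series). Runx1 held 4 of the 9 places common to all lists, Ovol1 2, and Gata3, Esr1 and Grhl2 1 each. The 10 min list came from starved cells and from other libraries, so time, medium and library cannot be told apart in its overlaps. Of its 16 member regions, 13 overlapped a TGFβ region (81.2%, 57.0 to 93.4%; 85.9% of the list) and 9 a vehicle region (56.2%, 33.2 to 76.9%; 64.1% of the list). Conversely, 13 of the 30 TGFβ regions overlapped a 10 min region (43.3%, 27.4 to 60.8%; 59.8% of the list).

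Of the window length, 73.7% lay in gene bodies, so intronic positions follow in part from the choice of window. Introns held 5 of the 9 vehicle regions, 19 of the 30 TGFβ regions and 11 of the 16 regions at 10 min. The intronic share of the whole lists is not given, so these counts cannot be read as particular to the members. At the TSS of any gene lay 4 vehicle (44.4%, 18.9 to 73.3%; 44.9% of the list), 5 TGFβ (16.7%, 7.34 to 33.6%; 28.4%) and 6 of the 10 min regions (37.5%, 18.5 to 61.4%; 38.4%), including the region at Gm962 in each list. The intervals covered the share of the whole list in each case.

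Per length of window, the members were spread widely. The density of all 10 windows together was 0.592 regions per 100 kb for vehicle, 1.97 for TGFβ and 1.05 at 10 min. The genome had 0.745, 1.46 and 1.01, and all protein-coding windows joined had 1.15, 2.11 and 1.56. Among single windows of protein-coding genes the upper quartile was 2.85, 4.64 and 4.06. Only Ovol1 exceeded it, in the vehicle list (3.89) and in the TGFβ list (5.83), with a region of Gm962 in that count. Foxa1 (4.40), Elf5 (3.78) and Runx1 (3.40) followed in the TGFβ list. Esr1 was the sparsest member with a vehicle region, at 0.230 in the vehicle and 10 min lists and 0.691 in the TGFβ list.

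**Figure D4:**
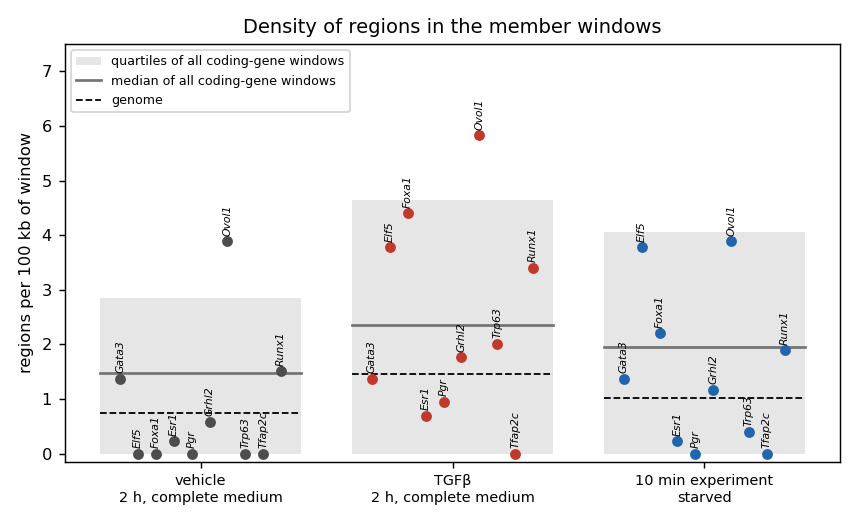
Regions per 100 kb of gene body ± 20 kb for each member (points) in the 3 lists; grey boxes are the quartiles over all protein-coding windows, the grey line their median and the dashed line the genome. Ovol1 stands above the box in the vehicle and TGFβ lists, and 5 members are at 0 in the vehicle list.

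Consensus letters were counted on both strands, up to 200 bp either side of a region's midpoint: TGACTCA for AP-1, CAGACA for SMAD, CCGGAAGT for ETS, AGATAA for GATA, AACCNGTT for GRHL, GCCNNNGGC for TFAP2, TGTGGTT for RUNX, TGTTTAC for FOX factors, and GGTCA and TGACC set 3 bases apart for the oestrogen receptor. No consensus contains another. AP-1 letters were in 4 of 9 vehicle member regions (27.5% of all vehicle regions held them), in 10 of 30 TGFβ regions (33.3%, 19.2 to 51.2%; 32.1% of the list) and in 3 of 16 10 min regions (27.1%). SMAD letters were in 4 of 9 (28.4%), 12 of 30 (40.0%, 24.6 to 57.7%; 34.7%) and 5 of 16 (28.7%). GATA letters were in 2 of 9 (15.2%), 8 of 30 (18.0%) and 4 of 16 (16.0%), and FOX letters in 0 of 9 (7.22%), 4 of 30 (7.71%) and 3 of 16 (7.55%). RUNX letters were in 1 of 9 (11.5%), 3 of 30 (12.4%) and 2 of 16 (11.9%), and TFAP2 letters in 1 of 9 (23.9%), 3 of 30 (18.2%) and 2 of 16 (22.1%). GRHL letters were in a single region, that of Foxa1 in the TGFβ list (2.52% of the list), and ETS and oestrogen receptor letters in none. All the intervals included the share of the whole list. A match describes the sequence and does not show binding, and neither does its absence speak about the factor. The AP-1 letters printed for Gata3 lay within the 10 min region too, but farther than 200 bp from its centre.

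The wider family was examined through lists of related genes. Of 24 paralogs of the members, 10 (vehicle), 15 (TGFβ) and 13 (10 min) had a region at a TSS, and their windows held 36, 68 and 54 regions. At the first coding start 8, 12 and 9 of the 24 had a region. Those called there in every list were Grhl1, Foxa2, Foxa3, Elf1, Elf2, Elf3, Gata6 and Trp53. The other 16 were not, and among them Gata1, Gata2, Gata4, Gata5 and Grhl3 had no region there in any list, as Gata3 and Grhl2 did not. Runx2 had 7, 15 and 9 regions in its window, with its TSS in the TGFβ and 10 min lists, and Runx3 and Grhl3 had none in any list. Of the AP-2 genes, Tfap2a had 2 regions in every list, with a TSS call in the TGFβ and 10 min lists, while Tfap2b and Tfap2d had none. Ovol2 was at 0, 2 and 1 regions, with its TSS in the TGFβ list alone, and Esr2 had a single region, in the 10 min list.

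Of 21 other factors of mammary epithelium, 10, 13 and 11 had a region at a TSS in the vehicle, TGFβ and 10 min lists. Klf5, Klf4, Cebpb, Stat5a, Xbp1, Id4, Lmo4, Cbfb (the partner of RUNX proteins), Zfpm1 (a GATA cofactor) and Nr3c1 were called in all 3. Tbx3 and Spdef had no region in any window. Of 18 factors that define other lineages, such as blood, muscle, nerve and gut, 1, 5 and 4 had a TSS region, for example Hnf4a in every list and Sox2 and Cdx2 at TGFβ and 10 min. By this count the members, at 3, 4 and 5 of 10, stood between these lists, as numbers without a test. At the first coding start they did not. There 10, 13 and 11 of the 21 mammary factors and 1, 4 and 3 of the 18 other factors had a region. Of the 10 members 0, 1 and 1 did.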

How the data were processed

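Chromatin accessibility was profiled by ATAC-seq in 4 NMuMG samples, 1 per group. The deposited lists hold intervals with a score, which the authors derived from the irreproducible discovery rate. Per the study's methods, reads went through the ENCODE ATAC-seq pipeline and were aligned to mm9, peaks were called with MACS2 2.1.2, and peaks reproducible between replicates were kept; lists per replicate were not analysed here, and the labels do not say what the replicates were. Depth is not given by the lists. The deposited start and end columns were used as other values, as coordinates.

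Intervals under 150 bp were dropped, neighbours with a gap under 1000 bp were merged, and regions sharing at least 1 bp were called overlapping. GENCODE vM1 on NCBIM37 (mm9) gave the genes; all intervals fell inside its chromosomes. Of the members, 9 matched by symbol and Tfap2c through its RefSeq synonym. All 10 members are named, with every region counted; related gene lists are given by count, with examples. The members and lists were chosen with earlier results of these data known. Python 3.11.15 and scipy 1.17.1 were used, and merging and overlap were checked on simulated intervals. Every protein-coding gene was counted under the same rules as the background. Alternatives to width, merging, score, window and overlap were tried.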

Additional observations from a re-analysis of the deposited data

How the results depend on the processing

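Of 89 values recomputed for 10 results, 67 stayed within 1.5 times the number, or within the interval of the share or ratio, and 22 moved; except where the alternative's construction gives it, the cause was not tested. All but 3 of the alternatives were planned; the first coding start was added after the values were seen. No paired analysis was possible because there is only 1 list per condition, and for that reason no replicate could be left out.

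Counting only the first coding start lowered the members with a TSS region to 0 (vehicle), 1 (TGFβ) and 1 (10 min). A TSS window of 200 bp gave 2 (TGFβ) and 3 (10 min), and coding transcripts alone gave 3 at 10 min, as did the median-score threshold and the equal-length lists. Peaks at or above the median score left 5 vehicle, 10 TGFβ and 8 of the 10 min regions in the windows, 5 TGFβ regions without a vehicle counterpart, and 80.0% of TGFβ regions overlapping the 10 min list. Equal-length lists left 10 TGFβ and 10 of the 10 min regions, a ratio of 1.11, 1 TGFβ region without a vehicle counterpart and an overlap of 90.0%. The shares of all genes and all regions under the alternatives of this section are not given, except at the first coding start. These counts and overlaps therefore cannot be read as particular to the members. Dropping intervals under 300 bp kept 17 TGFβ regions, of which 10 had no vehicle counterpart. Windows of 50 kb held 14 vehicle and 26 of the 10 min regions. The TGFβ to vehicle ratio was 2.00 to 3.67 in the other alternatives. With 9 vehicle regions in all, a single call moves each share noticeably.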
